A study of Mus musculus with 8 samples.

Results

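The 41 genes described here encode the sensors, chaperones, disulfide enzymes, degradation factors and translocation channel of the endoplasmic reticulum (ER) that are grouped as ER chaperones and unfolded protein response genes. They were chosen by name, and all 41 symbols were found among the 24883 gene entries of the count table. Of these, 40 had enough counts to be tested, while Derl3 did not. By role, 5 genes are sensors and transcription factors, 13 are chaperones and co-chaperones, 7 form or rearrange disulfide bonds, 10 act in ER-associated degradation and 6 move proteins into the ER.

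RNA came from ASZ001, a mouse basal cell carcinoma line in culture, that carried a doxycycline-inducible vector. The vector was empty in 1 group and held c-FOS, which pairs with JUN proteins to form AP-1, in the other 3, and every group had doxycycline for 24 h. The c-Fos cells then had 6 h of DMSO (the vehicle), of afatinib at 5 µM, which blocks the EGFR family of receptor kinases, or of UO126 at 10 µM, which blocks the kinases MEK1 and MEK2. The 4 groups held 2 libraries each. No label says whether these came from separate cultures, so p-values measure only the spread between libraries, which may be technical. The empty-vector label names doxycycline and no vehicle, so c-Fos and the vehicle treatment cannot be told apart in that comparison. All groups are 1 cell line, and neither the species of the c-FOS insert nor whether the cells were cloned after transfection is given in the sources used here.

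Proteins that enter the ER are folded there by chaperones such as BiP (Hspa5) and by disulfide isomerases, and those that fail to fold are sent back to the cytosol for degradation. When unfolded protein builds up, the sensors IRE1 (Ern1), PERK (Eif2ak3) and ATF6 set off the unfolded protein response. IRE1 splices the Xbp1 messenger, PERK slows translation and favours ATF4, and ATF6 is cut to release a transcription factor. These steps act on proteins and on splicing, which counts per gene do not measure. In epidermal cells the response is known from differentiation, when secretory and membrane protein synthesis changes.

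The promoters of many of these genes hold the ER stress response element, through which ATF6 with NF-Y acts: the boxes CCAAT and CCACG with 9 free bases between them. RefSeq promoter windows of build GRCm38.p6, from 250 bases before to 50 bases after each start, were matched by symbol for 35 of the 41 genes and searched on both strands. The element stood in 10 of the 35 genes (28.6%), against 37 of all 27025 genes with a window (0.137%). It was searched for because it is already known from genes of this kind, so the excess is a description and no independent finding. The matches are shown as a sequence that these 10 genes share, and they were found without any expression value. Each is written in the direction of the motif, with the CCAAT and CCACG ends in capitals, and Hsp90b1 holds 2 matches.
Hspa5: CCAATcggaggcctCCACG
Hsp90b1: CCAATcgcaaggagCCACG
Hsp90b1: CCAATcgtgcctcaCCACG
Calr: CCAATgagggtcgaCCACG
Canx: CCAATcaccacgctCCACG
Dnajc3: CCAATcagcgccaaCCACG
Creld2: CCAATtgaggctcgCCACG
Pdia6: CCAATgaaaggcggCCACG
Ero1lb: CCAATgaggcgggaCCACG
Syvn1: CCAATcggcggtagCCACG
Derl3: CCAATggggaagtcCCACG

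The Hspa5 match lies on the plus strand at chr2:34772025-34772043, and its first base is 65 bases before the start. The related element, ATTGG and CCACG with 1 free base between, was found in Dnajb11 and Herpud1 and in 12 of all genes (0.0444%). The AP-1 site TGANTCA was found in Eif2ak3, Hspa5, Sel1l and Sec61b, 11.4% of the matched genes against 8.97% of all genes. A CCACG box, whether inside one of these elements or apart from them, is present in 28 of the 35 genes (80.0%) and in 35.5% of all genes. Below are the 250 bases before the start of the genes that the results turn on most, Hspa5 (chr2:34771840-34772089, plus strand) and Herpud1 (chr8:94386179-94386428, plus strand), with the ER stress elements in capitals.
Hspa5: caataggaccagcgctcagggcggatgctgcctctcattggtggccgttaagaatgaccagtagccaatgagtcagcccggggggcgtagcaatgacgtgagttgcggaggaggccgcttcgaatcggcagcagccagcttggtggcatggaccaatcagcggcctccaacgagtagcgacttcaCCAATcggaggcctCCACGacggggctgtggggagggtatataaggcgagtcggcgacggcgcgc
Herpud1: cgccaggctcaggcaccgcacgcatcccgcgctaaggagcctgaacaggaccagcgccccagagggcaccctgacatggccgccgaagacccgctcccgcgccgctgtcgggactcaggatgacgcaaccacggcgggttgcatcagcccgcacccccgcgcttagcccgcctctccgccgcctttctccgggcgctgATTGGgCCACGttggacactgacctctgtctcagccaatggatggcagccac

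Total counts per library lay between 17901974 and 23126049. Fos, the induced gene, had 937.5 and 1040.5 deposited counts with the empty vector and between 18209 and 23573.5 in the 6 c-Fos libraries. Against the empty vector Fos rose by 4.65 ± 0.096 (log2, ± SE) in the DMSO libraries. With UO126 Fos fell by 0.44 ± 0.080 on the log2 scale against DMSO (edgeR adjusted p = 0.0015). The 2 UO126 libraries differed more from each other than those of any other group, with a chi-square per degree of freedom of 26.5 against 5.05 to 9.61. All 9 keratinocyte markers were detected. Their summed level was 18939 to 19027 CPM (counts scaled to library size) for the empty vector, 20946 to 21555 for DMSO, 18100 to 18379 for afatinib and 21345 to 22482 for UO126. The sum rests mostly on Krt5 and Krt14, and the markers did not move together. From the empty vector to DMSO 6 went up, among them Krt14 (mean 5477 to 7663 CPM). The other 3 went down, among them Krt17 (2667 to 1800 CPM) and Trp63 (286 to 170 CPM). The 8 fibroblast markers summed to 5.02 to 10.7 CPM with Lum and Thy1 at 0. The 5 endothelial markers summed to 55.9 to 71.8 CPM with Kdr at 0, nearly all of it Pecam1 (55.3 to 70.9 CPM). The 5 leukocyte markers summed to 4.79 to 5.93 CPM with Tyrobp at 0, nearly all of it Cd68 (4.68 to 5.93 CPM). Fewer cells of a type and less RNA per cell cannot be told apart in RNA from whole cultures.

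The 41 genes together took 1.05% and 1.08% of the counts in the empty-vector libraries and 1.15% and 1.18% with DMSO. They took 1.11% in each afatinib library, and 1.31% and 1.25% with UO126. Levels in CPM are given per library or as the mean ± SD of the n = 2 libraries of a group, and differences between groups as log2 fold changes ± SE. They were tested by edgeR's quasi-likelihood test, fitted to all 8 libraries and adjusted by Benjamini-Hochberg over the 12879 genes tested, and a gene was called under an adjusted p of 0.05.

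With c-Fos, 5 of 13 chaperone genes and 4 of 7 disulfide genes were among the rises. Of the 40 tested genes, 11 rose (27.5%, against 21.5% of all genes tested) and 3 fell (7.5%, against 20.7%), so that 35.0% were called in either direction, against 42.2% of all genes. The median log2 fold change was 0.10 over these genes and -0.01 over all genes. The rises were Atf6, Xbp1, the chaperone genes Hspa5, Hsp90b1, Calr, Dnajb11 and Manf, and the disulfide isomerase genes P4hb, Pdia3, Pdia6 and Txndc5. The falls were Atf6b, Syvn1 and Os9. The libraries of the groups did not overlap for 30 of the 40 genes, against 74.8% of all genes. Without DMSO replicate 2 the rises came to 7 and the falls to 1, and without UO126 replicate 2, a library of neither group that shares the fit, the rises came to 17.

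With afatinib, sensor and degradation genes were among the rises and chaperone genes among the falls. Against DMSO 9 rose (22.5%, against 21.2% of all genes) and 11 fell (27.5%, against 21.5%). Either way 50.0% were called, against 42.7% of all genes, with a median of -0.09 over these genes and 0.00 over all genes. The rises were the sensors Ern1, Eif2ak3 and Atf6, the oxidase genes Ero1l and Ero1lb, and the degradation genes Sel1l, Herpud1, Derl1 and Edem3. The falls were 7 chaperone genes (Hspa5, Hsp90b1, Calr, Manf, Sdf2l1, Creld2 and Fkbp2), the isomerase genes Pdia4 and Pdia6, and Sec61b and Ssr2. Libraries did not overlap for 34 of the 40, against 73.4% of all genes. Leaving out 1 library left 3 falls without afatinib replicate 2, 4 without DMSO replicate 2, and 6 without afatinib replicate 1, DMSO replicate 1 or empty-vector replicate 2. The DESeq2 Wald test also gave 7 falls, with 7 rises.

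With UO126 against the same DMSO libraries, 9 genes rose (22.5%, against 13.9% of all genes) and 0 fell (against 14.7%), which makes 22.5% called against 28.6%. The median was 0.10 over these genes and 0.00 over all genes. The rises were Eif2ak3, Xbp1, the chaperone genes Hspa5, Dnajb9 and Dnajc3, the isomerase gene Pdia4, and the degradation genes Sel1l, Herpud1 and Edem3. At an unadjusted p under 0.05 in edgeR 1 gene was lower, Fkbp2, and DESeq2 called 0 lower. Libraries did not overlap for 26 of the 40, against 62.3% of all genes. Since the UO126 pair stood apart, the counts were also taken without each: 11 rises without replicate 1, which kept 7 of the 9, and 10 without replicate 2, which kept all 9. Without replicate 1, Fkbp2, Ssr1 and Ssr3 were called lower. Without DMSO replicate 2 the rises came to 5.

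The inhibitors were compared directly, since both share the DMSO libraries. The c-Fos comparison uses these libraries too, so a change with c-Fos and an opposite one with an inhibitor are not independent. With afatinib against UO126 1 gene was higher (2.5%, against 7.14% of all genes) and 10 were lower (25.0%, against 7.14%), together 27.5% against 14.3%, and the median was -0.08 over these genes and 0.00 over all genes. The gene higher with afatinib was Ern1. The lower ones were Xbp1, 7 chaperone genes (Hspa5, Hsp90b1, Hyou1, Calr, Sdf2l1, Manf and Creld2), Pdia4 and Pdia6. Libraries did not overlap for 24 of the 40, against 52.7% of all genes. Without afatinib replicate 2 the lower calls came to 6 and Ern1 was not called, and without UO126 replicate 1 the lower calls came to 11, which kept all 10.

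**Figure D1:**
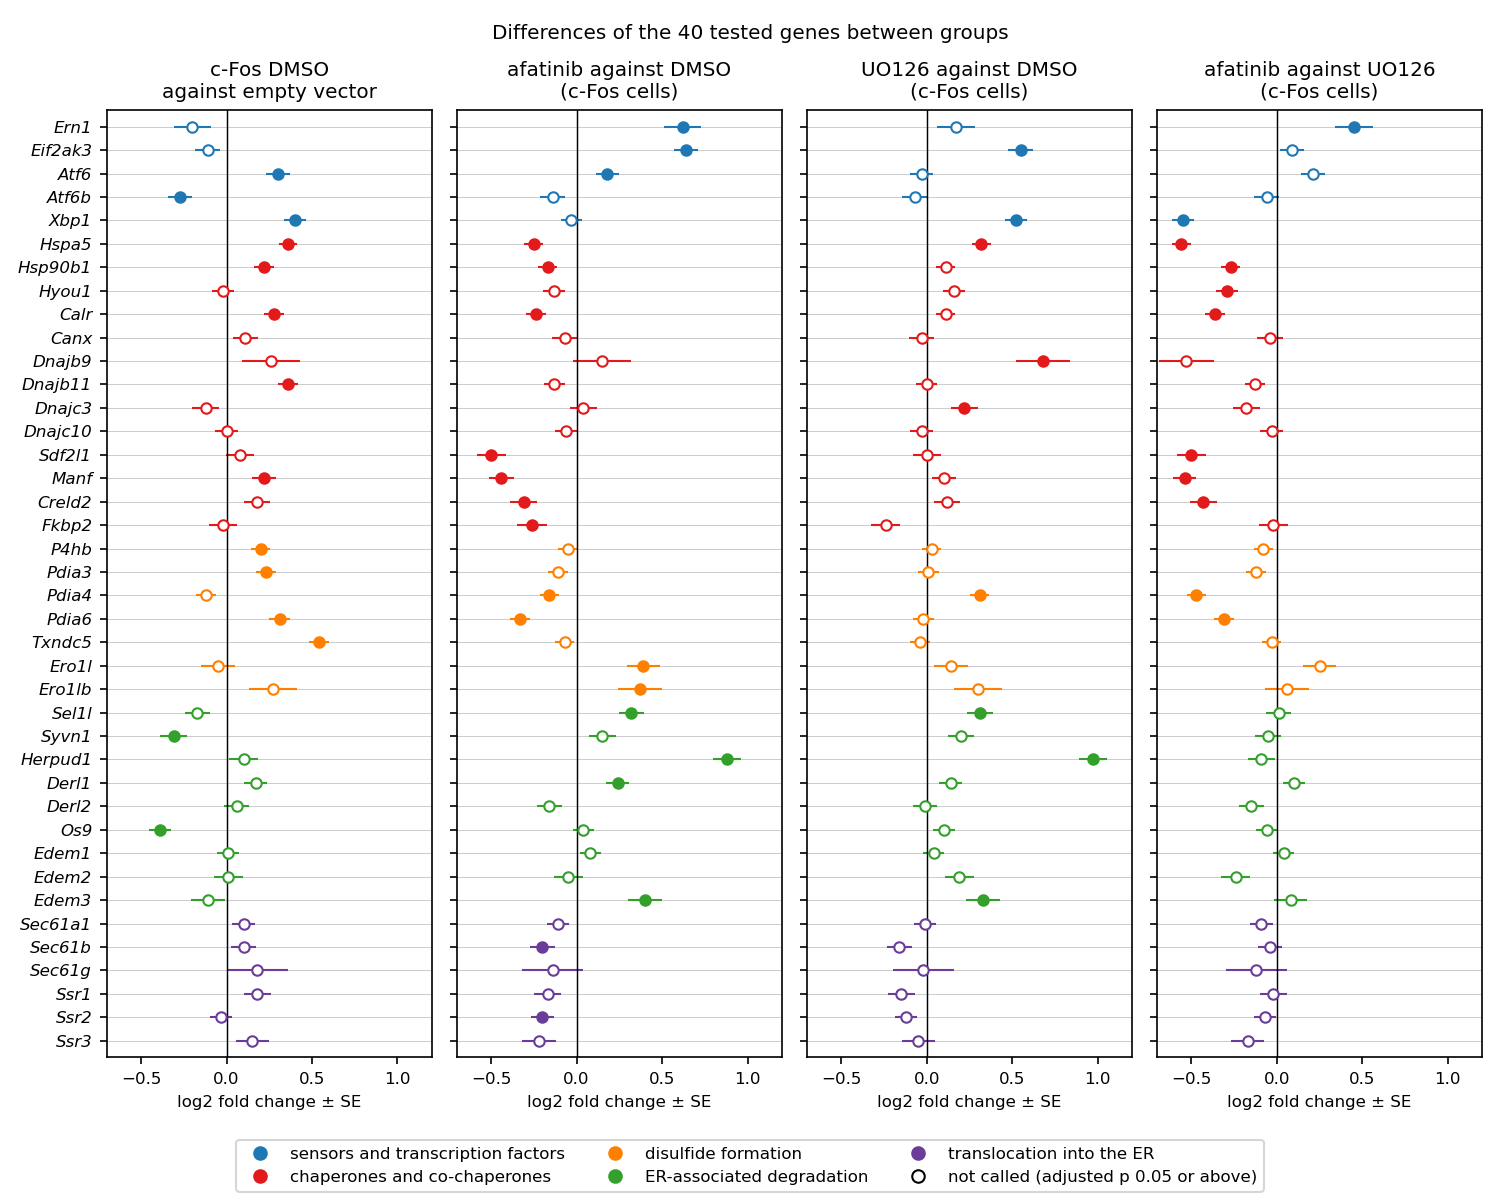
Log2 fold changes (x axis, ± SE) of the 40 tested genes (y axis, colored by role) in the 4 comparisons, with filled points for called genes and open points for the others. Chaperone genes lie mostly right of 0 with c-Fos, left of 0 with afatinib and right of 0 with UO126, and Herpud1 stands at 0.88 and 0.97 in the inhibitor panels.

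Among the sensors, Ern1, which encodes IRE1, was raised by afatinib. Its level was 18.1 and 16.5 CPM with the empty vector, 15.9 and 14.3 with DMSO, 22.4 and 23.8 under afatinib, and 15.3 and 18.6 under UO126. Both afatinib libraries lay above the other 6. The log2 fold change was 0.62 ± 0.11 for afatinib against DMSO (edgeR adjusted p = 6e-04) and 0.17 ± 0.11 for UO126 (edgeR adjusted p = 0.30). Against UO126 directly, afatinib was higher by 0.45 ± 0.11 (edgeR adjusted p = 0.014). That call was lost without afatinib replicate 2 (0.41, edgeR adjusted p = 0.11) and without UO126 replicate 1 (0.32, edgeR adjusted p = 0.05).

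Eif2ak3, which encodes PERK, rose with both inhibitors. It stood at 59.2 and 53.9 CPM with the empty vector and 54.2 and 50.6 with DMSO. With afatinib it stood at 82.7 and 80.8 CPM, and with UO126 at 75.7 and 77.5. All 4 inhibitor libraries lay above all 4 others, and the empty-vector and DMSO libraries overlapped. The log2 fold change was 0.64 ± 0.072 with afatinib (edgeR adjusted p = 1e-05) and 0.55 ± 0.072 with UO126 (edgeR adjusted p = 9.9e-05). The direct difference between the inhibitors was 0.09, with an approximate 95% interval of -0.04 to 0.23.

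Atf6 and its relative Atf6b, which encode membrane-bound transcription factors, moved apart with c-Fos. Atf6 stood at 96.8 and 88.9 CPM with the empty vector, 117 and 112 with DMSO, 128 and 132 under afatinib, and 117 and 108 under UO126. It rose with c-Fos by 0.30 ± 0.069 (edgeR adjusted p = 0.0033). A further rise of 0.18 ± 0.069 with afatinib (edgeR adjusted p = 0.048) was not called when any DMSO or afatinib library (edgeR adjusted p up to 0.18) or empty-vector replicate 1 (0.054) was left out, nor in the DESeq2 test (0.080). Atf6b stood at 100 and 107 CPM with the empty vector, 86.4 and 85.6 with DMSO, 81.1 and 75.5 under afatinib, and 78.1 and 85.7 under UO126. The empty-vector libraries were the 2 highest for Atf6b and the 2 lowest for Atf6. Atf6b fell by 0.27 ± 0.071 with c-Fos (edgeR adjusted p = 0.0081). This call was lost without empty-vector replicate 2 (-0.22, edgeR adjusted p = 0.085) and without DMSO replicate 1 (-0.25) or 2 (-0.26), and the Atf6 rise without empty-vector replicate 2 (0.24, edgeR adjusted p = 0.052).

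Xbp1, the transcription factor whose messenger IRE1 splices, rose with c-Fos and was higher again with UO126. Its level was 80.6 and 83.0 CPM with the empty vector, 111 and 104 with DMSO, 107 and 105 under afatinib, and 152 and 158 under UO126. The UO126 libraries were the highest, the empty-vector libraries the lowest, and the DMSO and afatinib libraries overlapped between them. The log2 fold change was 0.40 ± 0.065 with c-Fos (edgeR adjusted p = 0.00025) and 0.52 ± 0.064 with UO126 against DMSO (edgeR adjusted p = 5.4e-05). With afatinib it was -0.03 ± 0.064 (edgeR adjusted p = 0.77). Directly, Xbp1 was lower with afatinib than with UO126 (-0.55 ± 0.063 on the log2 scale, edgeR adjusted p = 0.00011). The counts do not separate spliced from unspliced Xbp1.

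**Figure D2:**
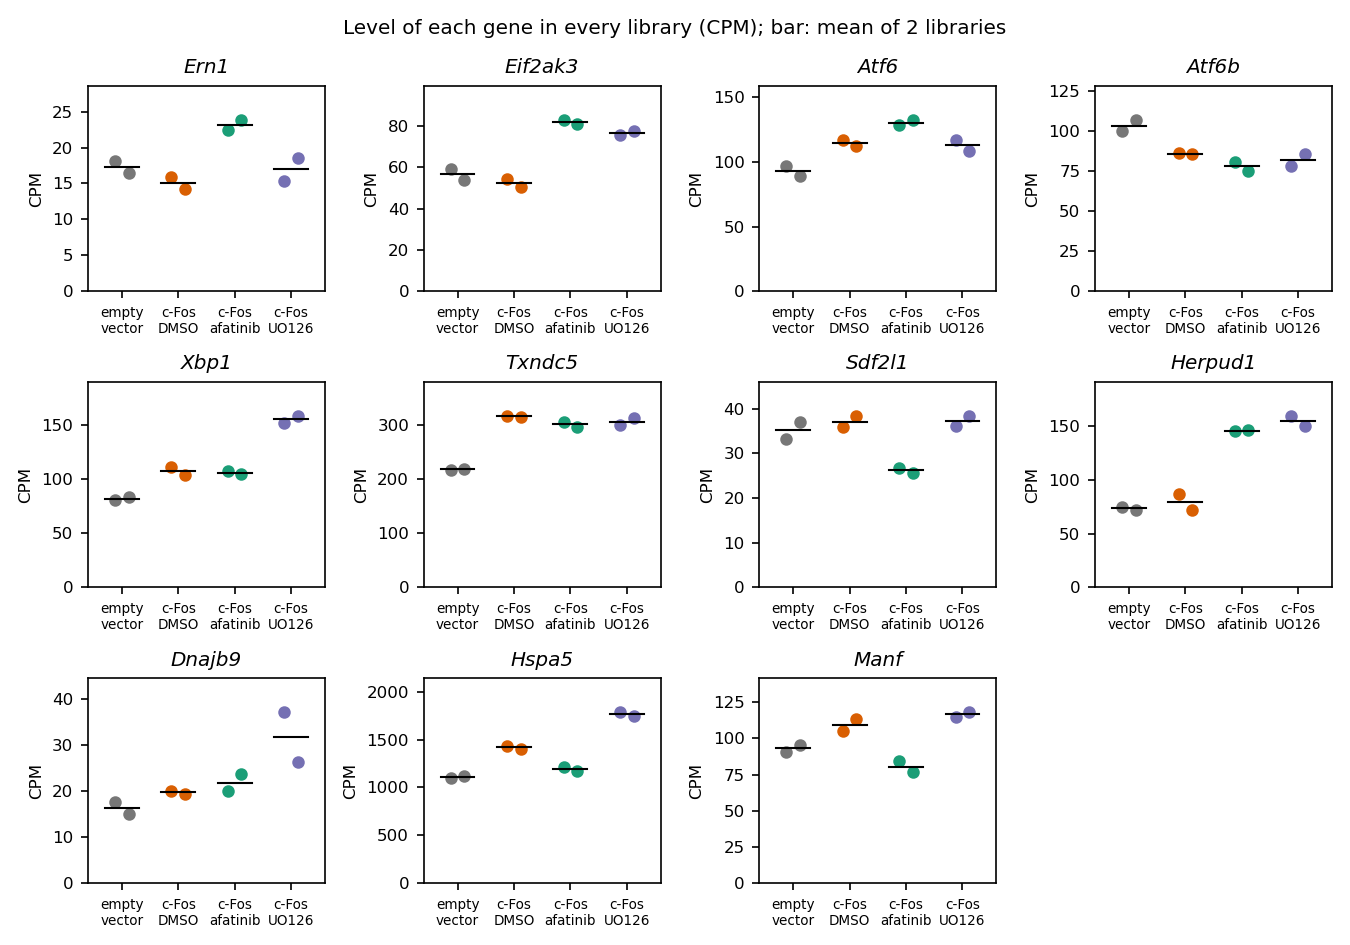
Level in CPM (y axis, from 0) of the 5 sensor and transcription factor genes and of 6 further genes in each of the 8 libraries (points) by group (x axis), with a bar at the mean of 2 libraries. Herpud1 and Eif2ak3 are high in both inhibitor groups, Xbp1 and Hspa5 are highest with UO126, and Sdf2l1 and Manf are lowest with afatinib.

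The chaperone genes gave 5 rises and 0 falls of 13 with c-Fos (against 21.5% and 20.7% of all genes), 0 rises and 7 falls with afatinib (21.2% and 21.5%), and 3 rises and 0 falls with UO126 (13.9% and 14.7%). In the direct comparison 0 were higher with afatinib and 7 lower (7.14% each), and all 13 log2 fold changes were below 0, with a median of -0.29. At an unadjusted p under 0.05, edgeR gave 0 chaperone falls with c-Fos, 0 rises with afatinib, 1 fall with UO126 and 0 higher in the direct comparison, and DESeq2 called 0 in each of these.

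Hspa5, which encodes BiP, the Hsp70 chaperone of the ER lumen that also holds the sensors inactive, was called in all 4 comparisons. It stood at 1095 and 1116 CPM with the empty vector, 1434 and 1401 with DMSO, 1216 and 1173 under afatinib, and 1785 and 1744 under UO126. No group overlapped another. Hspa5 rose by 0.36 ± 0.055 with c-Fos (edgeR adjusted p = 0.00017). Against DMSO it fell by 0.25 ± 0.055 with afatinib (edgeR adjusted p = 0.0026) and rose by 0.32 ± 0.055 with UO126 (edgeR adjusted p = 0.00085). The direct difference, -0.56 ± 0.055, put afatinib 1.48-fold below UO126 (edgeR adjusted p = 2.8e-05). The fall with afatinib was not called without afatinib replicate 2 (-0.20, edgeR adjusted p = 0.055).

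Sdf2l1, which encodes a partner of BiP and its J-domain co-chaperones, was low with afatinib. It stood at 33.3 and 37.0 CPM with the empty vector, 35.9 and 38.3 with DMSO, 26.8 and 25.7 under afatinib, and 36.2 and 38.3 under UO126. The afatinib libraries were the lowest of the 8, and the other groups overlapped. The log2 fold change was -0.50 ± 0.084 against DMSO (edgeR adjusted p = 0.00035) and -0.50 ± 0.083 against UO126 (edgeR adjusted p = 0.0015). With c-Fos it was 0.08 ± 0.082 (edgeR adjusted p = 0.48).

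Manf, which encodes a secreted and ER-resident factor that binds BiP, stood at 90.9 and 95.7 CPM with the empty vector and 105 and 113 with DMSO. It stood at 84.3 and 76.6 CPM with afatinib and 115 and 118 with UO126. The afatinib libraries were below all others and the UO126 libraries above all others. Manf fell by 0.44 ± 0.071 with afatinib against DMSO (edgeR adjusted p = 0.00024). Against UO126 the afatinib log2 fold change was -0.54 ± 0.070 (edgeR adjusted p = 0.00029). The rise with c-Fos was 0.22 ± 0.070 (edgeR adjusted p = 0.020), and it was not called without empty-vector replicate 1 (0.21, edgeR adjusted p = 0.11) or DMSO replicate 2 (0.18, edgeR adjusted p = 0.16).

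Dnajb9, a J-domain co-chaperone of BiP, was raised by UO126 but unevenly. It stood at 17.7 and 15.1 CPM with the empty vector, 20.0 and 19.4 with DMSO, 20.1 and 23.6 under afatinib, and 37.1 and 26.2 under UO126. The UO126 libraries were the highest and lay farther apart than any other pair. The log2 fold change against DMSO was 0.68 ± 0.16 (edgeR adjusted p = 0.012), and it was not called without DMSO replicate 1 (0.71, edgeR adjusted p = 0.07) or replicate 2 (0.67, edgeR adjusted p = 0.09). For afatinib against UO126 it was -0.53 ± 0.16 (edgeR adjusted p = 0.053). Without UO126 replicate 2 that difference was -0.76 (edgeR adjusted p = 2.3e-05).

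Of the abundant chaperones, Calr encodes calreticulin, which holds glycoproteins during folding, and Hsp90b1 encodes the ER member of the Hsp90 family. Calr rose from 928 ± 23 to 1126 ± 34 CPM with c-Fos and stood at 951 ± 31 with afatinib and 1217 ± 23 with UO126. Hsp90b1 rose from 1022 ± 14 to 1189 ± 17 CPM with c-Fos and stood at 1060 ± 11 with afatinib and 1279 ± 60 with UO126. The direct log2 fold changes of afatinib against UO126 were -0.36 ± 0.058 for Calr and -0.27 ± 0.057 for Hsp90b1. Canx, the membrane-bound relative of Calr, was called in no comparison, at 1112 ± 22, 1202 ± 23, 1146 ± 66 and 1180 ± 130 CPM in the same group order, but was called higher with c-Fos without UO126 replicate 2 (0.14, edgeR adjusted p = 0.049). Dnajb11, another J-domain partner of BiP, rose by 0.36 ± 0.060 with c-Fos and was called in no inhibitor comparison. Hyou1, the exchange factor of BiP, was called in the direct comparison (-0.29 ± 0.064), and with UO126 only without UO126 replicate 1 (0.23) or with a minimum of 5 CPM (0.18). Creld2 fell by 0.31 ± 0.078 with afatinib and Fkbp2, a prolyl isomerase, by 0.26 ± 0.086. Dnajc3, which restrains PERK, rose by 0.22 ± 0.079 with UO126, a call lost in 12 of the alternatives tried. Dnajc10 was called nowhere. The afatinib falls of Hsp90b1 and Fkbp2 were lost when any of the DMSO or afatinib libraries was left out (edgeR adjusted p up to 0.22 and 0.21). Those of Calr and Creld2 were lost without DMSO replicate 2 or afatinib replicate 2 (up to 0.077 and 0.13). The c-Fos rise of Hsp90b1 was lost without DMSO replicate 2 (0.21, edgeR adjusted p = 0.055). In the direct comparison, leaving out afatinib replicate 2 ended the calls of Hsp90b1 (-0.27), Hyou1 (-0.22) and Creld2 (-0.31), with edgeR adjusted p between 0.056 and 0.13. Hsp90b1 was also not called without afatinib replicate 1 (-0.25, edgeR adjusted p = 0.073).

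Of the 7 disulfide genes 4 rose and 0 fell with c-Fos (against 21.5% and 20.7% of all genes). With afatinib 2 rose and 2 fell (28.6% each, against 21.2% and 21.5%), and with UO126 1 rose and 0 fell (14.3% and 0.0%, against 13.9% and 14.7%). At an unadjusted p under 0.05 edgeR gave 1 fall with c-Fos and 0 falls with UO126, and DESeq2 called 0 in each. Txndc5, a thioredoxin-domain isomerase, had the largest c-Fos change of the 40 genes. It stood at 217 and 219 CPM with the empty vector and 316 and 315 with DMSO. It stood at 305 and 297 CPM with afatinib and 300 and 312 with UO126. All 6 c-Fos libraries lay above both empty-vector libraries, and the inhibitor libraries lay a little below the DMSO libraries. Txndc5 rose by 0.54 ± 0.057, or 1.45-fold (edgeR adjusted p = 6e-06), while afatinib and UO126 gave -0.07 ± 0.057 and -0.04 ± 0.057 against DMSO, neither of them called.

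P4hb, the canonical protein disulfide isomerase, rose by 0.20 ± 0.056 with c-Fos, Pdia3, the isomerase that works with calnexin and calreticulin, by 0.23 ± 0.059, and Pdia6 by 0.31 ± 0.060. The calls of P4hb and Pdia3 were lost without empty-vector replicate 1 or DMSO replicate 2, at log2 fold changes of 0.20 to 0.21. Pdia6 fell by 0.33 ± 0.060 with afatinib, was lower than with UO126 by a call lost without afatinib replicate 2 (-0.29, edgeR adjusted p = 0.052), and stood at 191 ± 0.90 CPM there, beside 193 ± 7.7 CPM with the empty vector. Pdia4 was highest with UO126, at 296 ± 2.4 CPM against 238 ± 4.8 with DMSO and 214 ± 1.2 with afatinib. It rose by 0.31 ± 0.057 with UO126 (edgeR adjusted p = 0.0012), and was lower with afatinib than with UO126 (-0.47 ± 0.057, edgeR adjusted p = 0.00018). The fall of Pdia4 with afatinib against DMSO (-0.16 ± 0.057) was lost in 11 of the alternatives. Ero1l and Ero1lb encode the oxidases that recharge the isomerases. With afatinib Ero1l rose by 0.39 ± 0.098 and Ero1lb by 0.37 ± 0.13. Ero1lb was low, between 4.32 and 7.20 CPM, and its call was lost in 7 alternatives, while the Ero1l call was lost only without afatinib replicate 2 (0.33, edgeR adjusted p = 0.053).

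Of the 9 tested degradation genes 4 rose and 0 fell with afatinib (against 21.2% and 21.5% of all genes), 3 rose and 0 fell with UO126 (13.9% and 14.7%), and 0 rose and 2 fell with c-Fos (21.5% and 20.7%). The direct comparison called 0 higher and 0 lower (7.14% each). At an unadjusted p under 0.05 edgeR gave 1 fall with afatinib, 0 falls with UO126, 1 rise with c-Fos, and 0 higher and 1 lower in the direct comparison, and DESeq2 called 0 in each of these.

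Herpud1, which encodes a membrane protein that organizes the degradation complex, had the largest inhibitor changes of the 40 genes. It stood at 75.0 and 72.1 CPM with the empty vector, 86.5 and 71.4 with DMSO, 145 and 146 under afatinib, and 159 and 150 under UO126. The 4 inhibitor libraries lay above the other 4, which overlapped between groups. The log2 fold change was 0.88 ± 0.082 with afatinib, or 1.84-fold, and 0.97 ± 0.082 with UO126, or 1.96-fold (edgeR adjusted p = 2.3e-06 for each). The direct difference was -0.09, with an approximate 95% interval of -0.25 to 0.07. With c-Fos the log2 fold change was 0.10 ± 0.084 (edgeR adjusted p = 0.35).

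Sel1l, the scaffold of the ubiquitin ligase Syvn1, rose by 0.32 ± 0.075 with afatinib and 0.31 ± 0.075 with UO126, the latter not called without DMSO replicate 2 (0.22, edgeR adjusted p = 0.10). Edem3, which trims mannose from misfolded glycoproteins, rose by 0.40 ± 0.099 and 0.33 ± 0.099. Its UO126 call was lost without DMSO replicate 1 (0.34), DMSO replicate 2 (0.33) or UO126 replicate 1 (0.20). Derl1, a derlin of the retrotranslocation channel, rose by 0.24 ± 0.066 with afatinib, a call lost without DMSO replicate 1 (0.22) or afatinib replicate 1 (0.20). Syvn1 fell by 0.31 ± 0.078 with c-Fos, a call lost without empty-vector replicate 1 (-0.28) or DMSO replicate 2 (-0.26). Os9, a lectin that hands glycoproteins to the ligase, fell by 0.39 ± 0.063 with c-Fos (edgeR adjusted p = 0.00024), from 200 and 199 CPM to 155 and 150. It stayed between 151 and 167 CPM with the inhibitors. Derl2, Edem1 and Edem2 were called in no comparison with all 8 libraries in the fit and the low-count filter. Without UO126 replicate 1 Edem2 was called higher with UO126 (0.30, edgeR adjusted p = 0.0091) and lower between the inhibitors (-0.32, edgeR adjusted p = 0.0088), the latter also with no low-count filter (-0.24). Without UO126 replicate 2 Derl2 was called lower with afatinib (-0.16, edgeR adjusted p = 0.045) and between the inhibitors (-0.24, edgeR adjusted p = 0.034). Derl3 had 0.5 to 5 deposited counts per library, too few to test.

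No translocation gene was called with c-Fos, with UO126 or between the inhibitors, 0 of 6 in each. Over all genes 42.2%, 28.6% and 14.3% were called in these comparisons. At an unadjusted p under 0.05 edgeR gave 1 higher with c-Fos and 0 in the others, and DESeq2 called 0. Ssr1 and Ssr3, of the translocon-associated complex, were called higher with c-Fos in the fit of only the 4 libraries (0.18 and 0.15, edgeR adjusted p = 0.0047 and 0.014) and without either UO126 library (0.16 to 0.20). Both were called lower with UO126 without its replicate 1 (-0.27 and -0.22), and with afatinib in the fit of only the 4 libraries compared (-0.16 and -0.22) and without either UO126 library (-0.15 to -0.22). Between the inhibitors Ssr3 was called lower without UO126 replicate 2 (-0.34, edgeR adjusted p = 0.0013). With afatinib Sec61b, a small subunit of the Sec61 channel, and Ssr2, of the same complex as Ssr1, fell by 0.20 ± 0.074 and 0.20 ± 0.065. These were 2 of the 6 genes (33.3%, against 21.5% of all genes lower). The Sec61b fall was lost in 9 alternatives and the Ssr2 fall in 5. All 6 log2 fold changes were below 0 with afatinib, between -0.22 and -0.11, and all 6 with UO126, between -0.16 and -0.01. Both sets are measured from the same DMSO libraries. Between the inhibitors all 6 were below 0 too, between -0.17 and -0.02. The pore gene Sec61a1 stood at 342 ± 1.3, 366 ± 10, 339 ± 16 and 362 ± 26 CPM with the empty vector, DMSO, afatinib and UO126.

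**Figure D3:**
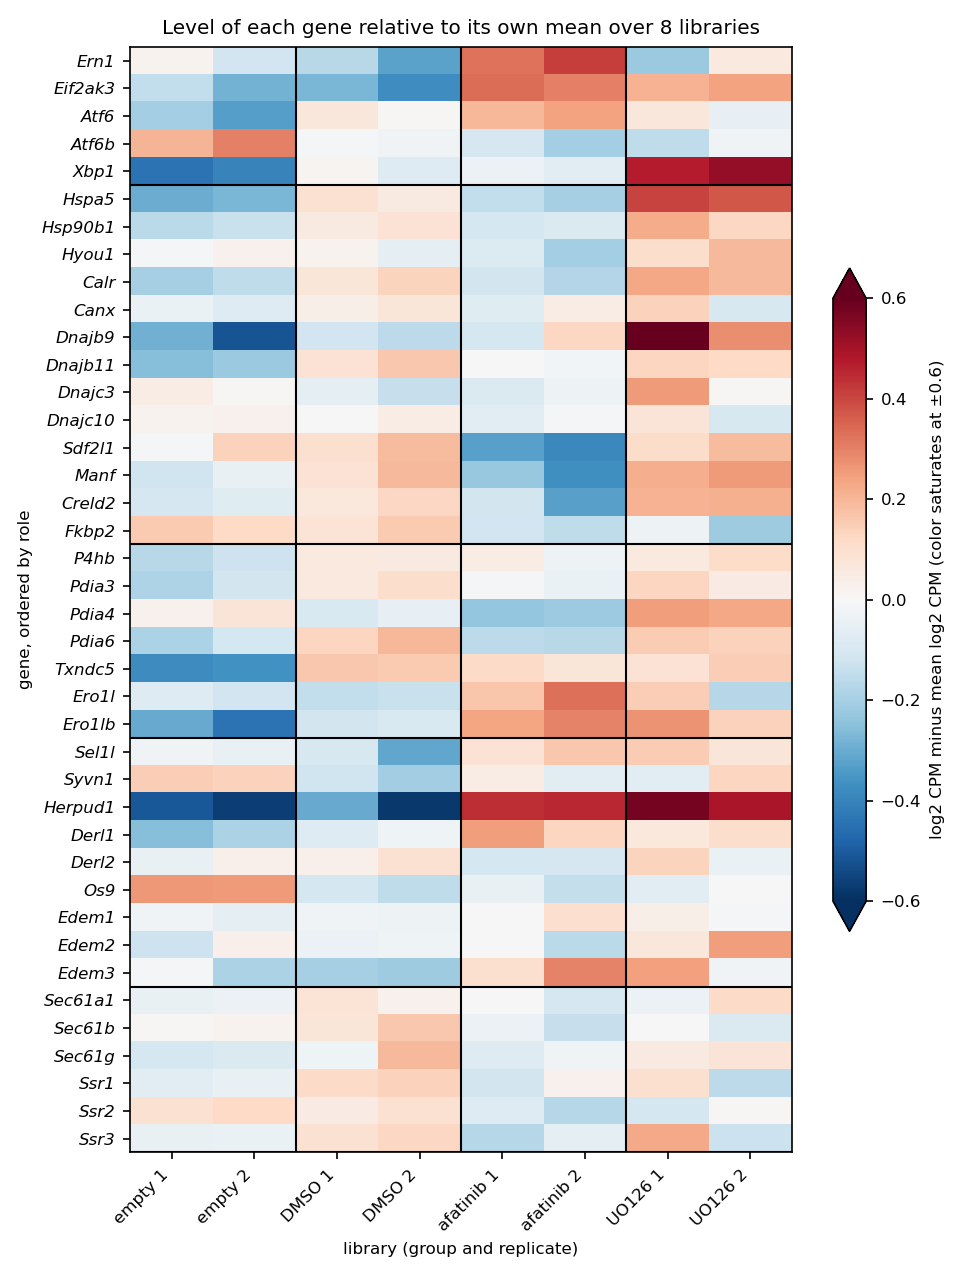
Heat map of log2 CPM of the 40 tested genes (rows, by role) in the 8 libraries (columns), each minus the gene's mean over the libraries, red above and blue below. The UO126 libraries differ from each other at Dnajb9 (37.1 and 26.2 CPM) and Ssr3 (477 and 373 CPM), and the afatinib pair is blue at Sdf2l1 and Manf and red at Ern1 and Herpud1.

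Levels can be set side by side between genes only per length, using the gene lengths in the deposited table. In the DMSO libraries the most abundant were Calr at 583, Hspa5 at 544, P4hb at 533 and Hsp90b1 at 434 CPM per kb. Of these, Hspa5 became the most abundant with UO126, at 677 ± 11 CPM per kb against 630 for Calr. The sensors and transcription factors were lower. Xbp1 stood at 48.2, Atf6b at 33.8, Atf6 at 15.4, Eif2ak3 at 11.7 and Ern1 at 3.81 CPM per kb. By class, the median level was 113 CPM per kb for the disulfide genes, 106 for the translocation genes and 49.5 for the chaperones. It was 22.7 for the degradation genes and 15.4 for the sensors and transcription factors.

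The calls were also set beside the promoter elements, as a description with no test. Of the 9 tested genes with the ER stress response element, 4 rose and 1 fell with c-Fos, 1 rose and 5 fell with afatinib, and 2 rose and 0 fell with UO126. Between the inhibitors 5 were lower with afatinib and 0 higher. The 5 that fell with afatinib (Hspa5, Hsp90b1, Calr, Creld2 and Pdia6) were also the 5 lower than with UO126. Both comparisons use the same afatinib libraries, so this overlap is not independent. Apart from that of Pdia6, each of these falls against DMSO was lost in some alternative. In the direct comparison the calls of Hsp90b1, Creld2 and Pdia6 were lost in some alternative. Among the 23 matched genes with neither this element nor the related one, 4 rose and 2 fell with c-Fos, 5 rose and 4 fell with afatinib, and 6 rose and 0 fell with UO126. Between the inhibitors 3 of them were lower with afatinib and 1 higher. Over all genes the shares higher and lower were 21.5% and 20.7% with c-Fos, 21.2% and 21.5% with afatinib, 13.9% and 14.7% with UO126, and 7.14% each between the inhibitors. Canx holds the element and was not called.

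Genes of the wider pathway were taken from lists chosen by function. The ATF4 branch, which lies below PERK, had the largest share of calls with the inhibitors of the lists described. Whether these calls run through PERK was not tested. Of its 12 genes 10 rose and 2 fell with afatinib (median 0.71), 9 rose and 1 fell with UO126 (median 0.52), and 3 rose and 3 fell with c-Fos. Over all genes 21.2% rose and 21.5% fell with afatinib, 13.9% and 14.7% with UO126, and 21.5% and 20.7% with c-Fos. Afatinib exceeded UO126 for 6 of the 12 and fell below it for 0 (against 7.14% of all genes each way). Trib3, a pseudokinase that feeds back on ATF4, stood at 15.6 and 16.1 CPM with DMSO, 118 and 109 under afatinib, and 54.1 and 56.5 under UO126. Its log2 fold change was 2.84 ± 0.079 with afatinib and 1.80 ± 0.080 with UO126, and 1.04 ± 0.069 between them (edgeR adjusted p = 1.3e-06). Chac1, which breaks down glutathione, stood at 29.7 and 29.2 CPM with DMSO, 182 and 164 under afatinib, and 94.7 and 93.3 under UO126, and it was higher with afatinib than with UO126 by 0.88 ± 0.067 (edgeR adjusted p = 4.1e-06). Sesn2, a stress sensor upstream of mTORC1, was higher by 0.65 ± 0.12 (edgeR adjusted p = 0.0043). With c-Fos Sesn2 fell by 0.54 ± 0.16 and Nupr1, a stress coregulator, by 0.36 ± 0.098, while Eif2s1, which PERK phosphorylates, rose by 0.35 ± 0.094. The 2 DMSO libraries, from which the inhibitor changes are also measured, stood apart for Sesn2, at 8.76 and 6.08 CPM.

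Among factors like ATF6, their site proteases and modulators of the sensors, 3 of 10 tested fell with c-Fos, 4 rose with afatinib and 3 rose with UO126. Crebrf, which promotes the turnover of the related factor Creb3, fell by 1.23 ± 0.13 with c-Fos and rose by 1.26 ± 0.13 with afatinib and 0.68 ± 0.13 with UO126. Creb3l2, a membrane-bound factor of secretory cells, fell by 0.57 ± 0.15 and rose by 0.49 ± 0.15 and 0.53 ± 0.15 in the same order. Wfs1, which restrains ATF6, fell by 0.41 ± 0.15 with c-Fos (edgeR adjusted p = 0.043) and rose by 0.58 ± 0.15 with afatinib. Creb3 rose by 0.28 ± 0.076 with UO126. Crebrf was higher with afatinib than with UO126 by 0.58 ± 0.12. The c-Fos falls and the inhibitor rises of these genes rest on the same 2 DMSO libraries and are not independent. Those libraries stood at 38.1 and 27.4 CPM for Creb3l2, 8.16 and 6.48 for Wfs1, and 7.78 and 8.64 for Crebrf.

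Of 31 other ER folding genes 5 rose and 3 fell with c-Fos, 4 rose and 4 fell with afatinib, and 3 rose and 2 fell with UO126. Either way 25.8%, 25.8% and 16.1% were called, less than the 42.2%, 42.7% and 28.6% of all genes. Mogs, the glucosidase that starts glycan trimming, fell by 0.66 ± 0.082 with afatinib and 0.52 ± 0.082 with UO126. Txndc16 rose by 0.54 ± 0.089 and 0.30 ± 0.090, Fkbp14 by 0.35 ± 0.11 with afatinib and Tmx4 by 0.31 ± 0.10 with UO126 (edgeR adjusted p = 0.037 for Tmx4). With c-Fos Cnpy3 rose by 0.37 ± 0.069, and Cnpy2 and the glucosidase gene Ganab fell by 0.36 ± 0.075 and 0.29 ± 0.058. Between the inhibitors Txndc11 was lower with afatinib (-0.29 ± 0.080) and Sumf1 higher (0.23 ± 0.067). Of 27 other degradation genes 10 rose and 3 fell with afatinib (37.0% and 11.1%, against 21.2% and 21.5% of all genes). With UO126 4 rose and 1 fell (14.8% and 3.7%, against 13.9% and 14.7%). Fam8a1, a partner of Syvn1, rose by 0.62 ± 0.090 with afatinib, and the ligase gene Rnf185 by 0.52 ± 0.077 with afatinib and 0.26 ± 0.077 with UO126. Ngly1, which removes glycans from proteins to be degraded, fell by 0.32 ± 0.10 with c-Fos and rose by 0.50 ± 0.10 with afatinib and 0.43 ± 0.10 with UO126. Aup1 fell by 0.26 ± 0.072 with UO126. With c-Fos 5 of this list rose, among them Erlin1 (0.37 ± 0.067), and 5 fell (18.5% each, against 21.5% and 20.7% of all genes). Directly, Fam8a1 (0.39 ± 0.087) and Rnf185 (0.26 ± 0.075) were higher with afatinib than with UO126 and Selenok was lower (-0.34 ± 0.11, edgeR adjusted p = 0.047).

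Of 32 other translocation and glycosylation genes 9 rose and 1 fell with c-Fos, 1 rose and 4 fell with afatinib, and 0 rose and 1 fell with UO126. The shares called were 31.2%, 15.6% and 3.12%, below the 42.2%, 42.7% and 28.6% of all genes. The signal peptidase gene Sec11c rose by 0.73 ± 0.089 with c-Fos, Tram1 by 0.43 ± 0.12 and Magt1 by 0.34 ± 0.11. Srp68 and Srp72, of the signal recognition particle, fell by 0.42 ± 0.064 and 0.38 ± 0.056 with afatinib, and Tram2 rose by 0.52 ± 0.13. Spcs1 fell by 0.21 ± 0.068 with UO126 (edgeR adjusted p = 0.034). Against UO126, afatinib gave 0.67 ± 0.13 for Tram2, -0.35 ± 0.056 for Srp72 and -0.26 ± 0.064 for Srp68. Of 21 genes of ER exit and retrieval 5 rose and 1 fell with c-Fos, 3 rose and 3 fell with afatinib, and 2 rose and 0 fell with UO126. At 28.6%, 28.6% and 9.52% called, this list too lay below all genes. The coat gene Sec23a rose by 0.55 ± 0.085 with afatinib and 0.54 ± 0.084 with UO126, and Sec24d rose by 0.44 ± 0.065 with c-Fos and 0.28 ± 0.063 with UO126. Kdelr2, a receptor that returns ER proteins, rose by 0.31 ± 0.059 with c-Fos, as did Mcfd2 by 0.30 ± 0.068. Kdelr3 rose by 0.31 ± 0.11 with afatinib (edgeR adjusted p = 0.036). Preb fell by 0.28 ± 0.072 with afatinib and differed by -0.30 ± 0.072 between afatinib and UO126.

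Chaperones outside the ER were given for comparison. Of 25 cytosolic and mitochondrial genes 8 rose and 2 fell with c-Fos (median 0.15), 3 rose and 13 fell with afatinib (median -0.23), and 4 rose and 9 fell with UO126 (median -0.14). Their share of falls was 52.0% with afatinib and 36.0% with UO126, against 53.8% and 0.0% for the ER chaperones. Over all genes 21.5% rose and 20.7% fell with c-Fos, 21.2% and 21.5% with afatinib, and 13.9% and 14.7% with UO126. With c-Fos Bag3, a co-chaperone of Hsp70, rose by 0.53 ± 0.063 and the chaperonin genes Cct5 and Tcp1 by 0.47 ± 0.059 and 0.41 ± 0.062. With afatinib and with UO126 Hspa4l rose by 1.18 ± 0.064 and 0.79 ± 0.064 and Hspb8 by 0.90 ± 0.060 and 0.73 ± 0.060. Hspa1b rose by 0.95 ± 0.068 with afatinib and Hspa1a by 1.58 ± 0.40 with UO126, but these are near-identical copies whose reads may be split, so each value is uncertain. Between the inhibitors Hspa1b and Hspa4l were higher with afatinib by 0.62 ± 0.067 and 0.39 ± 0.063, and Cct2 was lower (-0.24 ± 0.061).

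**Figure D4:**
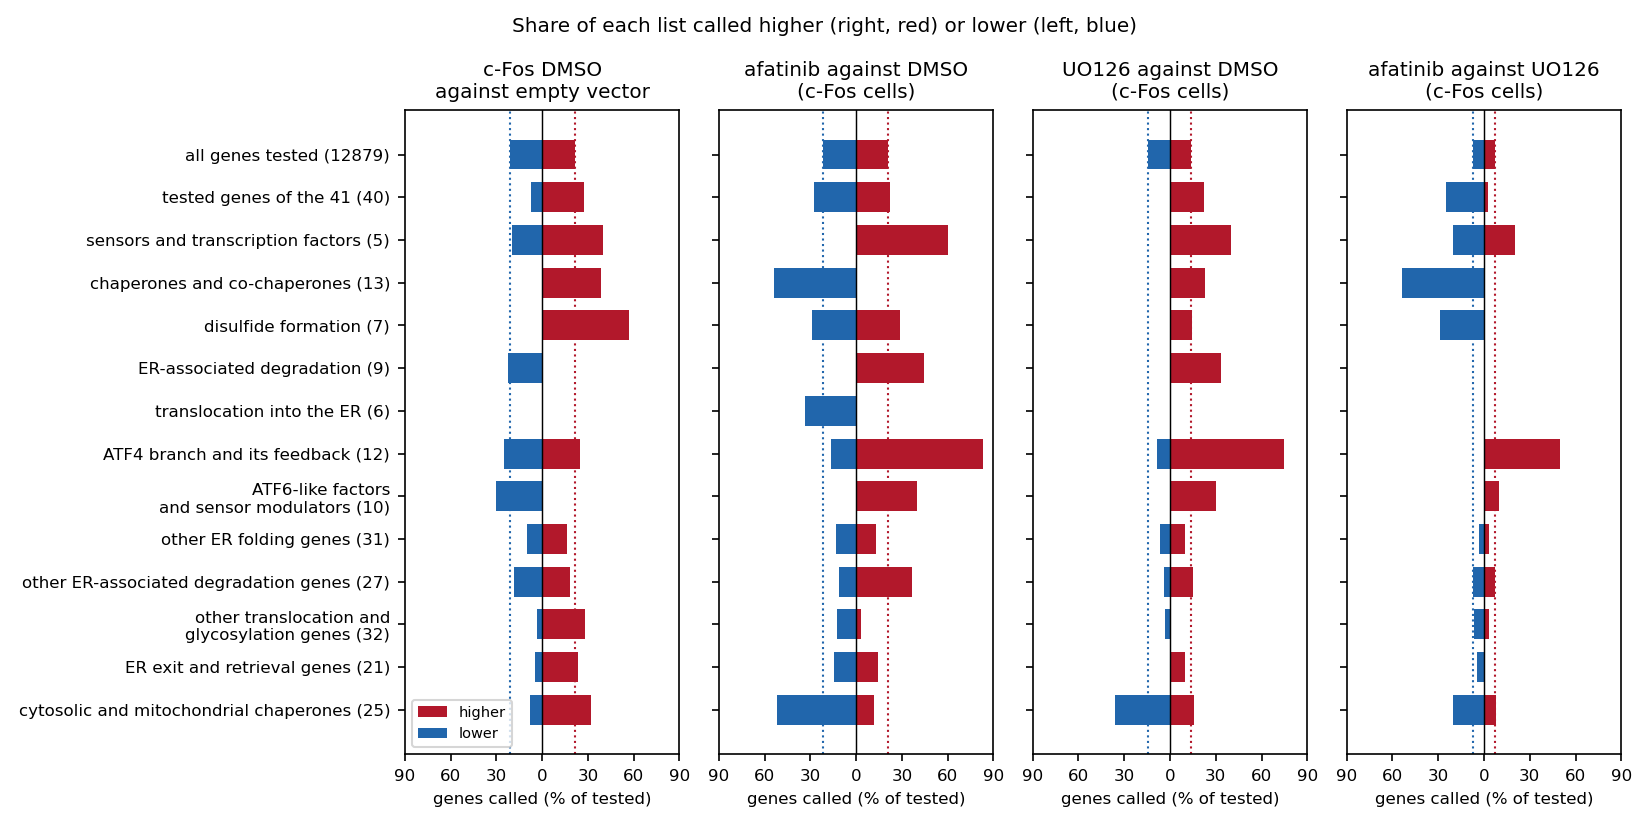
Share of tested genes (x axis, percent; number tested in brackets) called higher (right, red) or lower (left, blue) in each list and in all genes, for the 4 comparisons, with dotted lines at the shares of all genes. The ATF4 branch reaches 83.3% higher with afatinib and 75.0% with UO126, and the chaperones 53.8% lower with afatinib and 0.0% lower with UO126.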

How the data were processed

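Per the labels' protocols, RNeasy columns were used for RNA and the Illumina TruSeq RNA kit for libraries. That kit does not mark strand, so overlapping genes on opposite strands share their reads. TopHat alignment and HOMER counting are given in the series' design text, and DESeq2 and the build mm9 are named among the submitters' processing notes. Versions are not given in the sources used here. The deposited expected counts are not normalized and are multiples of 0.5, with 1 entry per gene symbol. Of 24909 entries, 26 bear dates in place of symbols and were left out (0.218% to 0.246% of a library).

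Counts were rounded and analysed with edgeR 4.0.16 in R 4.3.3: filterByExpr (at least 10 counts in enough libraries, 15 in all) left 12879 genes, scaled by trimmed means of M-values (TMM). The quasi-likelihood test, two-sided, fitted each group's mean, with 4 residual degrees of freedom. The procedure was tested on simulated data. Alternatives were DESeq2 1.42.0 (size factors, and the Wald test), other filters and thresholds, a replicate block, unrounded counts, omission of the ribosomal precursor Rn45s, a fit of only the 4 libraries compared, and leaving out each library. A call is said to be lost only over the alternatives other than stricter thresholds.

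The 41 genes, the lists and the tests were chosen with earlier results of these data known. The text names the sensors and transcription factors, and the other genes of the 41 called with an absolute log2 fold change of at least 0.5. It also names up to 3 called genes per list and comparison with at least 5 CPM and no overlap of libraries. 1 gene that this rule names is not reported here. Further genes of the 41 that are given with values were chosen after their values were seen. Lists used current symbols for Mesd, Ufd1, Selenok and Selenos. Promoter sequences are RefSeq windows of GRCm38.p6, matched by symbol. No coordinates of the count table's own build are given.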

Additional observations from a re-analysis of the deposited data

How the results depend on the processing

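No called log2 fold change of the 40 tested genes changed its direction in any alternative listed under the processing. With thresholds left as they were, the calls that held in every alternative were 7 of 14 for c-Fos, 8 of 20 for afatinib, 5 of 9 for UO126 and 6 of 11 for afatinib against UO126. Requiring a 1.5-fold change left 0 of the 41 genes higher and 0 lower with c-Fos, 3 higher and 0 lower with afatinib, 2 higher with UO126, and 0 and 0 between the inhibitors. Over all genes it left 930 higher and 1090 lower, 946 and 833, 519 and 406, and 133 and 186 in the same order. At an adjusted p under 0.01, 6 of the 41 were lower with afatinib and 0 were higher with afatinib than with UO126, and over all genes 1001 were higher and 1144 lower with UO126, and 378 and 408 between the inhibitors. The DESeq2 Wald test called 7 lower with afatinib, unrounded counts gave 1 lower with UO126 (Fkbp2), no low-count filter gave 2 higher between the inhibitors, and a fit of only the 4 libraries compared gave 481 and 505 genes between the inhibitors.

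Leaving out 1 library at a time moved the genes of the 41 called higher and lower to 7 to 17 and 1 to 4 with c-Fos, 6 to 10 and 3 to 14 with afatinib, 5 to 11 and 0 to 3 with UO126, and 0 to 2 and 6 to 14 between the inhibitors. Over all genes the ranges were 1939 to 3466 and 1661 to 3085, 1905 to 3344 and 1692 to 3205, 913 to 2051 and 968 to 2063, and 391 to 1316 and 307 to 1102. A group left with 1 library was assumed to vary like the others.

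A replicate block gave 11 higher and 3 lower with c-Fos, 7 and 8 with afatinib, 8 and 0 with UO126, and 1 and 10 between the inhibitors. Same-numbered libraries shared only a number: the correlation of their deviations from the group means lay between -0.21 and 0.12. Other scalings moved the median of all genes by at most 0.013 (log2). With 2 libraries a group, changes of the size seen here, mostly under 1.5-fold, are called or not according to small differences in spread, and Derl3 could not be tested at its depth.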
